A study of Mus musculus with 96 samples.

Results

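Trimethylation of histone H3 at lysine 4 (H3K4me3) was compared between hippocampal neurons of mice that lacked the DNA glycosylase Mutyh and those of wild type (WT) mice. The comparison used the H3K4me3 pull-down libraries of NeuN+ nuclei, 3 from Mutyh-/- and 3 from WT mice, which were 6 of the 96 samples of the series. All of its 12628 consensus peaks were members. The mice of every group were C57BL/6N males of 6 months, the Mutyh-/- mice carried a constitutive knockout, and WT mice served as controls. Each library came from the pooled hippocampi of several animals of a genotype, whose nuclei were sorted on NeuN, a nuclear protein of neurons, into NeuN+ and NeuN- fractions. A NeuN+ library therefore mixes excitatory neurons and interneurons of all hippocampal regions. The same table held 3 libraries each of Ogg1-/- mice and of mice without both glycosylases (DKO), in all 12 libraries, and these entered the fit to estimate the spread. A replicate is thus such a pool, and p-values measure the spread between these libraries.

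Mutyh removes adenine that was built in opposite 8-oxoguanine, an oxidised guanine, and so starts base excision repair at mispairs that would otherwise become G-to-T changes. Ogg1 removes 8-oxoguanine itself when it is still paired with cytosine. H3K4me3 is laid down by the Set1 and MLL methyltransferase complexes around the start sites of active genes, most of which lie in CpG islands, and is removed by demethylases of the Kdm5 family. In the hippocampus, neurons carry the mark at housekeeping promoters and at promoters of synaptic genes. The question put to the data was which promoters gained or lost the mark when Mutyh was missing.

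Each peak was a window of 401 bp, and 11771 of the 12628 (93.2%) were annotated to a promoter. Reads in peaks numbered 236080 to 292279 per WT library and 217669 to 378371 per Mutyh-/- library, and the 2 groups overlapped (mean log2 total higher by 0.13 in Mutyh-/-, exact two-sided permutation test, p = 0.6, the smallest possible being 0.1). The median peak held 16 to 30 reads per library, so single peaks were measured with coarse precision. Levels are given as RPM, the reads of a peak relative to all reads in peaks after TMM scaling on the usual reads-per-million scale, with their SD over n = 3 libraries where a mean is given. The fold changes are on the log2 scale with a prior count of 2, which draws low peaks towards 0, and their errors are SEs of the limma fit. One shallow library, DKO replicate 1 with 96023 reads, bore on the estimate of spread. All 7 neuronal markers had a promoter peak, with a summed level of 520.1 to 591 RPM in WT and 497 to 581 in Mutyh-/- libraries. Of 21 markers of astrocytes, oligodendrocytes, microglia and vessels, 3 had one (Slc1a3, Mbp and Kdr). The other oligodendrocyte markers, among them Mog and Mag, and all 5 microglial markers had none. The summed levels ranged, in WT and Mutyh-/- libraries, from 44.0 to 70.5 and 9.64 to 46.9 for astrocytes, from 84.6 to 115.3 and 93.8 to 110.1 for oligodendrocytes, and from 39.7 to 71.1 and 67.7 to 106.1 for vessels. Replicate libraries correlated across peaks no better within a genotype (Spearman's rho 0.53 to 0.62) than between WT and Mutyh-/- (0.48 to 0.64), values that describe peaks and not independent samples.

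The leading promoters, by smallest p among those without overlap of the groups, for a higher mark in Mutyh-/- neurons were those of Nsun3, Zfp712, Kcnh5, Gcc1 and Ache, and for a lower mark those of Marchf4, Ahcy, Fyn, Styx and 2510009E07Rik. Their log2 fold changes were between 1.00 and 1.31 upward and between -0.92 and -1.43 downward. No peak passed the threshold once the p-values were adjusted for the number of peaks. The smallest adjusted p (Benjamini-Hochberg, limma) was 0.999, and 486 peaks (3.85%) had an unadjusted p under 0.05. That share is below the 0.05 that such a threshold lets through when no peak differs. A region counted as called, or differentially enriched, when its log2 fold change exceeded 0.5 in size at an unadjusted p below 0.05, and 477 peaks met this, which is 3.78% of those tested. Of these, 244 (1.93%) were higher and 233 (1.85%) lower in Mutyh-/- neurons. Among promoter peaks 217 (1.84%) were higher and 221 (1.88%) lower. The edgeR quasi-likelihood test called 506 and DESeq2 378, and neither gave an adjusted p under 0.05. On log2(value + 1) of the deposited values, which carry the authors' own library factors, 115 peaks (0.911%) were called, and 43 of them (37.4%) were higher, against 51.2% of the 477, and the median over all peaks moved from 0.002 to -0.068. With only the factors changed and the prior count kept, a setting added after the data were seen, 121 were called, 45 of them (37.2%) higher, and the median was -0.065. Without DKO replicate 1 the spread was estimated as smaller and 667 peaks (5.28%) were called, 333 higher and 334 lower. These included all 477, and the smallest adjusted p was 0.391.

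Fold changes of the called regions were moderate, with a median of 0.81 in the higher and -0.78 in the lower group and extremes of 2.09 and -2.09. The median SE of all peaks was 0.34, so that a log2 fold change of 0.69 was needed for an unadjusted p of 0.05 at a typical peak. In 331 of the 477 the 3 Mutyh-/- libraries lay on one side of the 3 WT libraries, 161 above and 170 below, while this was so for 10.1% of all peaks (5.19% above and 4.93% below). The 477 were called on the same libraries, so the larger share among them follows from the choice and is no test. Over all peaks the share was near 0.1, which 3 against 3 libraries give when no peak differs. In the plot of all peaks, called regions in both directions lie along the rim of one cloud centred on 0.

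**Figure D1:**
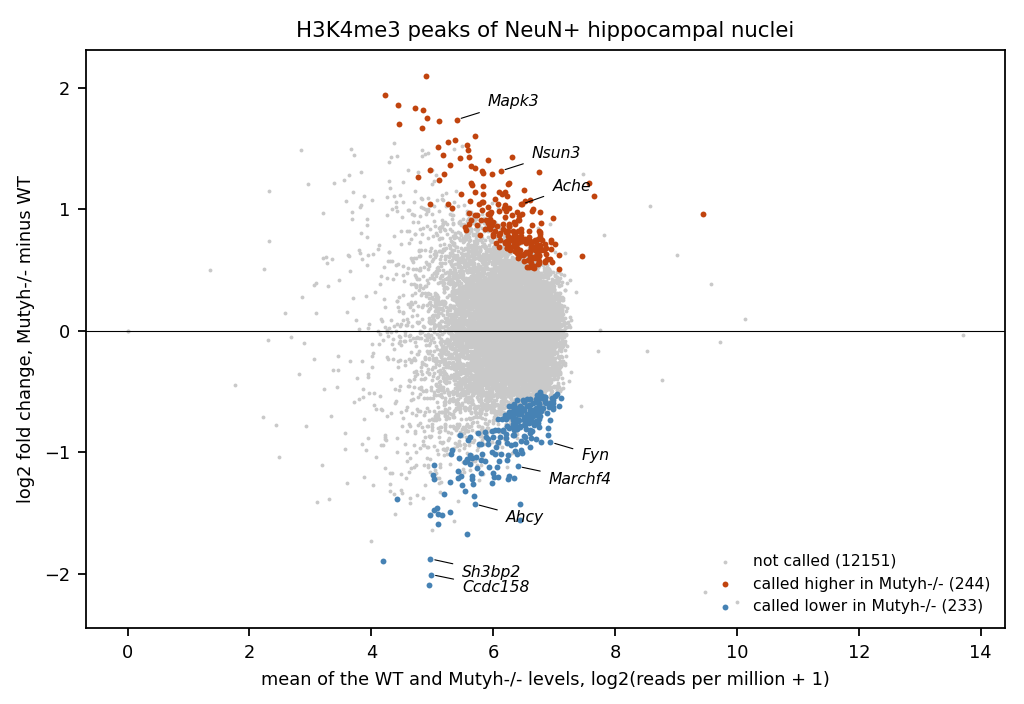
Log2 fold change of H3K4me3 between Mutyh-/- and WT neurons (y axis) against the mean level of the peak as log2(RPM + 1) (x axis), with one point per peak. Red and blue points are the 244 higher and 233 lower called regions, grey points the other peaks, and the cloud is centred on 0.002 with calls in both directions at similar numbers.

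The targeted gene itself could not be checked directly, since no peak was annotated to Mutyh (start at position 116807636 of chromosome 4, GRCm38, plus strand). The nearest was the promoter peak of Toe1, a gene for a nuclear deadenylase that is transcribed in the opposite direction, at chr4:116807234-116807634, and its window ends 2 bp before the annotated start of Mutyh. It held 112, 52.9 and 33.8 RPM in the WT libraries and 67.5, 63.4 and 93.8 in the Mutyh-/- libraries (log2 fold change 0.29 ± 0.36), so the mark at this shared start region was still present in the knockout and the groups overlapped. The window lies outside the annotated Mutyh gene, so it says nothing on whether the deletion is there. Ogg1 (peak at chr6:113326823-113327223) had a low level, 34.97 ± 9.14 in WT and 47.5 ± 2.95 in Mutyh-/- (log2 fold change 0.40 ± 0.61). Within 10 Mb on both sides of the start of Mutyh, 5 of 177 peaks were called higher and 6 lower (6.21%, against 3.78% of all peaks), with a median log2 fold change of 0.063.

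The leading promoter peaks were those with the smallest p among called regions without overlap between the groups and with at least 10 reads on average in the higher group, 12 in each direction out of 140 higher and 162 lower promoter peaks that met this. They were picked for these values, so the values below describe them and are no test. Adjusted p was 0.999 for each. In the higher group, log2 fold changes ran from 0.82 to 1.74. In the lower group they ran from -0.86 to -2.01. None of the 24 overlapped a peak of H3K27me3 or Suz12 in NeuN+ nuclei, and none lay mostly in repeats.

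The sequence under the 3 first peaks of each direction is shown because the mark follows CpG content. The 200 middle bases of each window are printed 5′ to 3′ on the plus strand of GRCm38, with every CG dinucleotide in capitals. For the higher peaks these are chr16:62786447-62786646, chr13:67060807-67061006 and chr12:75176837-75177036, and for the lower peaks chr1:72536316-72536515, chr2:155074144-155074343 and chr10:39370066-39370265.
Nsun3: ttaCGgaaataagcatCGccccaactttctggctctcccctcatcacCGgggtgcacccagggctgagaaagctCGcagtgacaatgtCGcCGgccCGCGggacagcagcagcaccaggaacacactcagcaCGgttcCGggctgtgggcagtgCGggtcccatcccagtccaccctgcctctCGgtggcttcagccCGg
Zfp712: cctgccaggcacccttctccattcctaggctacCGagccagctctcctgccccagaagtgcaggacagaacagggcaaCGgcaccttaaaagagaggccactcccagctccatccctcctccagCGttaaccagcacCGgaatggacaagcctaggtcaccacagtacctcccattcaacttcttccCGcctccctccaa
Kcnh5: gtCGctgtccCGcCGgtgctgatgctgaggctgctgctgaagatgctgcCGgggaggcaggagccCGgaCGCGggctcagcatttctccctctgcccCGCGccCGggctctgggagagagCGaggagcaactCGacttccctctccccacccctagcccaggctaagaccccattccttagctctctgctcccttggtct
Marchf4: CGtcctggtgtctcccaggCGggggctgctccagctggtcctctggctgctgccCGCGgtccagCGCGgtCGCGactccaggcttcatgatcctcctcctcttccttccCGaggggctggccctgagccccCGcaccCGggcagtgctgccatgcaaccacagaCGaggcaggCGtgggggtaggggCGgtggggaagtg
Ahcy: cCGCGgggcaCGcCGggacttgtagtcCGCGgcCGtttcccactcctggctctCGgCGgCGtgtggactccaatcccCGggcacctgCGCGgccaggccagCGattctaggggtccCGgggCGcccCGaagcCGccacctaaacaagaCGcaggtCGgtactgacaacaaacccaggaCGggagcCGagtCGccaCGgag
Fyn: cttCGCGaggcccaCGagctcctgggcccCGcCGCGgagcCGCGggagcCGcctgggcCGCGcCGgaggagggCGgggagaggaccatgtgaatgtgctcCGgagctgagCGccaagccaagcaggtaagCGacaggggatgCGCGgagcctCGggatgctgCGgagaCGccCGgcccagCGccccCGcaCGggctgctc
The stretches held 13, 5 and 12 CG dinucleotides for Nsun3, Zfp712 and Kcnh5, and 14, 24 and 25 for Marchf4, Ahcy and Fyn. Over whole windows, the median was 26 CG for the 12 leading higher and 38.5 for the 12 leading lower peaks. This contrast was not seen over all called regions, which had medians of 35 in the higher and 34 in the lower group against 35 for all peaks, and a median GC content of 67.1% in both against 66.6%.

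Among the promoters with more H3K4me3 in Mutyh-/- neurons, a pair encodes a kinase and a phosphatase of one signalling route. Mapk3 codes for the kinase ERK1, and its promoter peak (chr7:126759781-126760181) held 11.2, 4.41 and 40.6 RPM in the WT libraries and 72.3, 70.1 and 49.5 in the Mutyh-/- libraries (log2 fold change 1.74 ± 0.50). The peak was low in WT, with 1 to 12 reads per library, and one WT library came close to the lowest knockout. Ptpn5 codes for STEP, a neuronal tyrosine phosphatase that acts on ERK and on Fyn. At its promoter (chr7:47132270-47132670) WT libraries had 59.5, 92.6 and 74.5 and Mutyh-/- libraries 135, 154 and 122 RPM (log2 fold change 0.82 ± 0.25). No library of one group came near the other, and with the authors' library factors the value was 0.78 on log2(value + 1), 0.75 with the prior count kept, and not called in either.

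Genes of the membrane and the synapse were also among them. Ache, whose enzyme acetylcholinesterase breaks down acetylcholine, had a peak at chr5:137288263-137288663 with 52.1, 57.3 and 54.1 RPM in the WT libraries and 130.2, 127 and 102 in the Mutyh-/- libraries (log2 fold change 1.04 ± 0.28). The WT libraries were close to each other and every Mutyh-/- library was above them. Kcnh5, the potassium channel Eag2, went from 43.3 ± 10.9 to 108 ± 15.2 RPM at chr12:75176737-75177137 (n = 3 each, log2 fold change 1.21 ± 0.32). Gcc1, a golgin that tethers vesicles at the trans-Golgi, had 81.8, 52.9 and 57.5 in WT and 145, 167 and 96.4 in Mutyh-/- libraries at chr6:28421248-28421648 (log2 fold change 1.00 ± 0.27). The lowest knockout library exceeded the highest WT library by little.

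Another 5 of the higher peaks belonged to genes of the nucleus. Ccnh, the cyclin of the CDK-activating kinase in the transcription factor TFIIH, had 81.8, 96.96 and 40.6 RPM in WT and 164, 140.2 and 125 in Mutyh-/- at chr13:85189537-85189937 (log2 fold change 0.98 ± 0.28). Hsf2, a heat shock transcription factor, had 59.5, 57.3 and 50.8 in WT and 106, 96.8 and 141 in Mutyh-/- at chr10:57486616-57487016 (log2 fold change 0.94 ± 0.28). In both, all knockout libraries were higher, and 1 of them stood well above the rest for Hsf2. The RefSeq gene start nearest to the Hsf2 window was that of 4930467K11Rik. The zinc finger gene Zfp712 (chr13:67060707-67061107) had 40.9, 30.9 and 54.1 in WT and 101, 100.1 and 91.2 in Mutyh-/- (log2 fold change 1.13 ± 0.29), while Zfp958 (chr8:4613255-4613655) spread from 70.3 to 157 among knockouts, over WT values of 44.0 to 63.2 (log2 fold change 1.04 ± 0.30). The 3 knockout values of Zfp712 lay close together, those of Zfp958 did not. Rp9, a splicing-associated gene mutated in a human retinitis pigmentosa, had 48.5 to 119 in WT and 154 to 174 in Mutyh-/- (chr9:22467854-22468254, log2 fold change 0.92 ± 0.30), and without WT replicate 2, its lowest library, it was 0.58 and no longer called.

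The other 2 peaks were of organelle genes. Nsun3, which methylates the mitochondrial methionine tRNA, had the smallest p of all 12628 peaks (chr16:62786347-62786747), with 22.3, 39.7 and 50.8 RPM in the WT libraries and 121, 93.5 and 86.0 in the Mutyh-/- libraries (log2 fold change 1.31 ± 0.32). Plin1, a lipid droplet coat protein best known from fat cells, had its peak 1486 bp from a start site (chr7:79721402-79721802), with 26.0 to 30.9 in WT and 62.5 to 111 in Mutyh-/- libraries (log2 fold change 1.41 ± 0.45). For both genes the WT libraries were at 50.8 RPM or below and no knockout library was under 62.5.

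**Figure D2:**
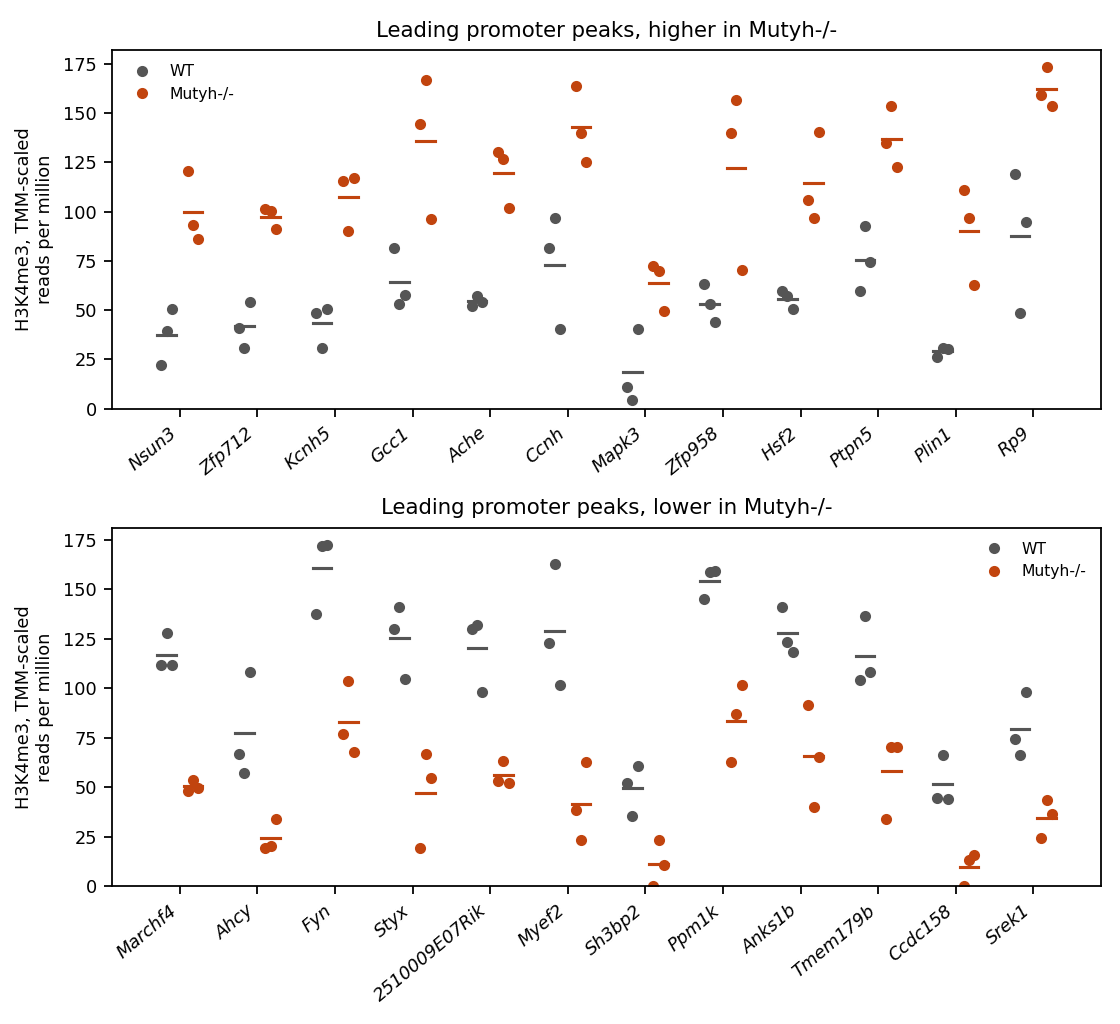
H3K4me3 level in TMM-scaled RPM (y axis) at the 12 leading promoter peaks in each direction (x axis), with one point per library and a bar at the mean of 3 libraries. WT (grey) and Mutyh-/- (red) points do not overlap at any of the 24 peaks, which is how the peaks were chosen, and the gap is narrow at Zfp958, Mapk3, Sh3bp2 and Gcc1.

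Among the promoters with less H3K4me3 in Mutyh-/- neurons, 4 encode enzymes or adaptors of protein phosphorylation. Fyn, a Src-family kinase of neurons, had 138, 172 and 173 RPM in the WT libraries and 77.1, 103 and 67.7 in the Mutyh-/- libraries (chr10:39369966-39370366, log2 fold change -0.92 ± 0.25). Its level in WT was the highest of the 24 peaks, at 161 ± 20.0. The pseudophosphatase gene Styx (chr14:45351443-45351843) had 130.2, 141 and 105 in WT and 19.3, 66.8 and 54.7 in Mutyh-/- libraries (log2 fold change -1.43 ± 0.39), with replicate 1 of the knockout by far the lowest. Ppm1k, the mitochondrial phosphatase that activates breakdown of branched-chain amino acids, had 154 ± 7.99 in WT and 83.7 ± 19.7 in Mutyh-/- (n = 3 each, chr6:57534807-57535207, log2 fold change -0.86 ± 0.26). Sh3bp2, an adaptor of tyrosine kinase signalling, was low in all libraries (chr5:34525754-34526154), with 14, 8 and 18 reads in WT and 0, 7 and 4 in Mutyh-/- (log2 fold change -1.88 ± 0.56).

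A further set of lower promoters covers metabolism, RNA and the synapse. Ahcy hydrolyses S-adenosylhomocysteine, the product that methyltransferases leave after each methyl transfer. Its peak (chr2:155074044-155074444) held 66.9, 57.3 and 108 RPM in WT and 19.3, 20.0 and 33.9 in Mutyh-/- (log2 fold change -1.43 ± 0.37), and every knockout library was well below the lowest WT library. Myef2, a repressor of the myelin basic protein gene, had 123, 163 and 102 in WT and 38.6, 23.4 and 62.5 in Mutyh-/- (chr2:125123105-125123505, log2 fold change -1.56 ± 0.45). Srek1, a splicing regulator, had 79.5 ± 16.6 and 34.7 ± 9.77 (n = 3 each, chr13:103773968-103774368, log2 fold change -1.07 ± 0.34). Both are RNA or DNA binding proteins whose knockout values all stayed under those of WT. Anks1b, a protein of the postsynaptic density, had 141, 123 and 118 in WT and 91.6, 40.1 and 65.1 in Mutyh-/- (chr10:89873055-89873455, log2 fold change -0.96 ± 0.29). Marchf4, a membrane-bound ubiquitin ligase, had tight groups, 112, 128 and 112 in WT and 48.2, 53.4 and 49.5 in Mutyh-/- (chr1:72536216-72536616, log2 fold change -1.12 ± 0.29). The RefSeq gene start nearest to this window was that of Smarcal1, so the peak may belong to either gene.

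The remaining 3 lower promoters were of less characterised genes. Tmem179b (chr19:8774564-8774964) went from 116 ± 17.7 to 58.1 ± 21.1 and 2510009E07Rik (chr16:21694324-21694724) from 120.2 ± 19.1 to 56.2 ± 6.28 RPM (n = 3 each). Ccdc158 (chr5:92675328-92675728) had the lowest fold change of the 12, -2.01 ± 0.62, on 12, 15 and 13 reads in WT and 0, 4 and 6 in Mutyh-/-. Leaving out single libraries ended no call among the 12 lower and 1 among the 12 higher peaks, that of Rp9.

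Outside promoters, 27 peaks were called higher and 12 lower of 857, which is 4.55%, beside 3.78% of all peaks. The median SE was 0.49 at these peaks, against 0.34 over all peaks. The 3 leading higher ones were annotated to Crisp4, Axin2 and Filip1l. The Crisp4 peak (chr1:18058039-18058439) lay 78612 bp from the start site it was annotated to, in an exon of a transcript listed without a gene. It had 52.1, 61.7 and 57.5 RPM in WT and 149, 103 and 104 in Mutyh-/- (log2 fold change 0.96 ± 0.28). Axin2, an inhibitor of Wnt signalling, is the gene nearest to an intergenic peak at chr11:109011772-109012172, which had 74.4, 141 and 173 in WT and 279.6, 300.4 and 237 in Mutyh-/- (log2 fold change 1.11 ± 0.37). The Filip1l peak was intronic (chr16:57391363-57391763), with 81.8, 66.1 and 30.5 in WT and 188, 177 and 93.8 in Mutyh-/- (log2 fold change 1.30 ± 0.43). At Axin2 and Filip1l the groups were apart, but the other genotypes spread widely, from 154 to 441 in Ogg1-/- and 112 to 356 in DKO libraries at Axin2. Each lost its call when 1 WT library was left out (WT replicate 1 (0.77) for Axin2 and WT replicate 3 (0.93) for Filip1l) and with robust empirical Bayes. Both windows also overlapped peaks of H3K27me3 and Suz12 in NeuN+ nuclei. At Axin2 those peaks had means of 7578 RPM in WT and 11124 in Mutyh-/- for H3K27me3, and 13487 and 16955 for Suz12, neither called.

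Of the lower peaks outside promoters, the first (chr3:96497280-96497680) was annotated as intergenic and to Hjv, a co-receptor of iron regulation. The RefSeq gene start near this window was that of the tRNA gene n-TNgtt12, not that of Hjv. The peak had 85.5, 101 and 67.7 in WT and 33.7, 30.0 and 41.7 in Mutyh-/- (log2 fold change -1.12 ± 0.35). The second lay in an intron of the nonagouti gene a (chr2:155019064-155019464), 54.6 kb from the lower peak of Ahcy. It had 37.2, 61.7 and 40.6 in WT and 19.3, 23.4 and 7.82 in Mutyh-/- (log2 fold change -1.22 ± 0.49), and the call was lost without WT replicate 2 or Mutyh-/- replicate 3 (-0.90 to -1.03). The third, in an exon of the transcription factor gene Sp6 (chr11:97022014-97022414, log2 fold change -1.06 ± 0.46), lost its call without WT replicate 2 or 3 or Mutyh-/- replicate 1 or 3 (-0.81 to -1.05).

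Lists of genes by function held 929 promoter peaks, of which 17 were called higher and 17 lower. This is 3.66%, beside 3.72% of all promoter peaks. None was called among 19 peaks of base excision repair, the pathway of Mutyh (median log2 fold change -0.0037, range -0.52 to 0.49), 34 of Polycomb subunits or 59 of ribosomal proteins. Hox genes had no promoter peak in these neurons. Called peaks numbered 2 of 82 for oxidative phosphorylation, 1 of 41 for the DNA damage response, 2 of 60 for glutamate receptors and their scaffolds and 6 of 311 for Zfp zinc fingers. These shares were below that of all promoters. Counts were 4 of 73 for ion channels, 4 of 55 for synaptic release, 4 of 69 for axon guidance, 3 of 42 for activity-regulated genes, 3 of 33 for antioxidant genes, 3 of 23 for GABA and interneuron genes and 2 of 29 for H3K4 methylation. The medians of these lists lay between -0.095 and 0.092, around -0.0011 for all promoter peaks, as seen in the plot by gene list.

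**Figure D3:**
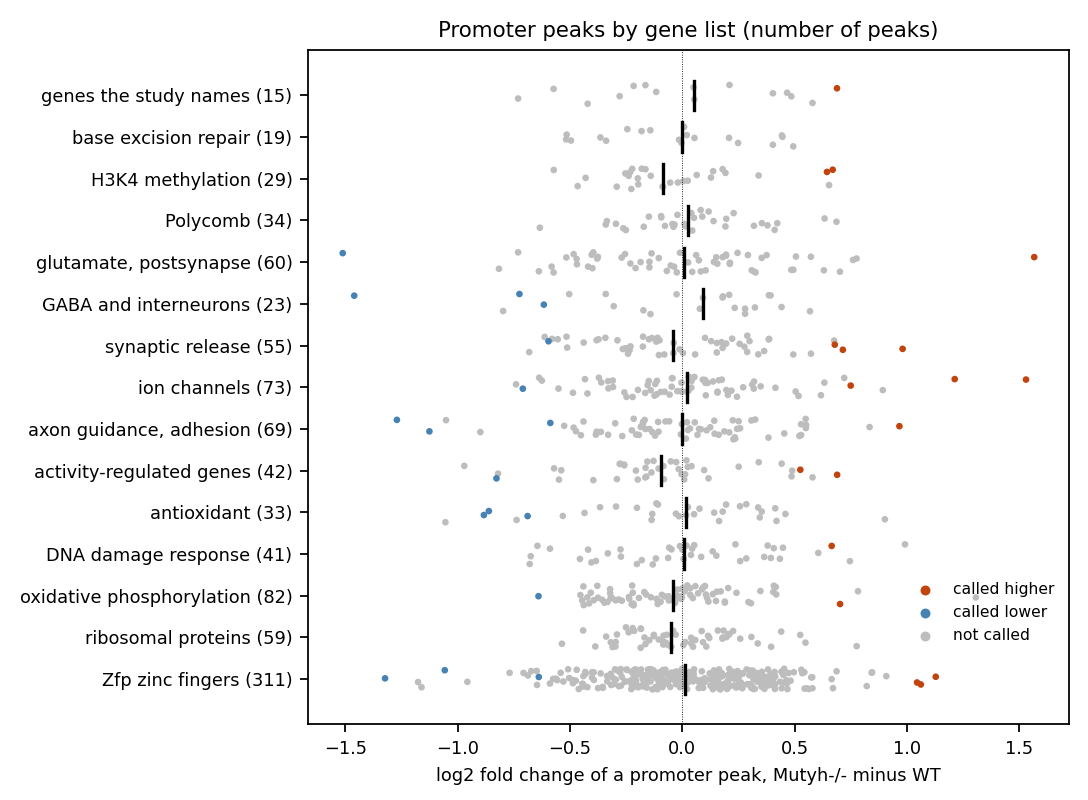
Log2 fold change between Mutyh-/- and WT (x axis) of each promoter peak of the gene lists (y axis, number of peaks in brackets), with one point per peak and a black line at the list median. Red points were called higher, blue lower and grey not called, and each median lies within 0.1 of 0.

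In the GABA list the 3 called peaks were all lower and the median of the list was 0.092. Gad1 makes GABA from glutamate and marks interneurons, and its promoter (chr2:70562774-70563174) had 70.7, 30.9 and 50.8 RPM in WT and 24.1, 6.68 and 13.03 in Mutyh-/- (log2 fold change -1.46 ± 0.62). The knockout values rest on 5, 2 and 5 reads, and the call was lost without WT replicate 1 or 3 or Mutyh-/- replicate 2 or 3 (-1.16 to -1.44). The neuropeptide gene Cck was also called (92.4 ± 4.35 in WT and 58.0 ± 4.13 in Mutyh-/-, log2 fold change -0.62 ± 0.29). Leaving out any library but Mutyh-/- replicate 1 ended this call (-0.58 to -0.65). In bulk nuclei, fewer cells of a type and less of the mark per cell cannot be told apart.

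The 3 called antioxidant genes were lower too, all of them enzymes that reduce oxidised thiols or methionine. Srxn1, which repairs overoxidised peroxiredoxins, had 112, 149.8 and 122 in WT and 43.4, 93.5 and 107 in Mutyh-/- (log2 fold change -0.69 ± 0.29). Glrx2, a mitochondrial glutaredoxin, had 112, 106 and 84.6 and 111, 33.4 and 36.5 (log2 fold change -0.86 ± 0.37), and Msrb2, a mitochondrial methionine sulfoxide reductase, 96.7, 83.7 and 91.4 and 14.5, 83.4 and 70.3 (log2 fold change -0.88 ± 0.40). In Glrx2 1 knockout library was at the WT level, and in Msrb2 1 knockout library was far below the other two. These calls were lost without WT replicate 2 or Mutyh-/- replicate 1 (-0.33 to -0.58) for Srxn1, without WT replicate 1 or 2 or Mutyh-/- replicate 2 or 3 (-0.58 to -0.83) for Glrx2 and without WT replicate 1, 2 or 3 or Mutyh-/- replicate 1 (-0.22 to -0.94) for Msrb2. The median of all 33 antioxidant peaks was 0.017. The 2 called genes of H3K4 methylation were higher, namely the methyltransferase Kmt2d (76.5 ± 10.8 in WT and 128 ± 35.7 in Mutyh-/-, log2 fold change 0.67 ± 0.24) and the demethylase Kdm1b (81.8 ± 27.6 and 127 ± 17.2, log2 fold change 0.64 ± 0.26). The median of that list was -0.088, on the other side of 0. Kmt2d lost its call without Mutyh-/- replicate 1 (0.46) and Kdm1b without WT replicate 2 or Mutyh-/- replicate 2 (0.38 to 0.54). The Kdm1b window lies near the RefSeq starts of both Kdm1b and Tpmt.

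Synaptic and channel genes were called in both directions. In synaptic release, Dnm1 (dynamin of vesicle recovery, 0.68), Syt4 (a synaptotagmin, 0.98) and the synapsin gene Syn3 (0.71) were higher and Rims2 (an active zone protein, -0.60) was lower, the values being log2 fold changes. The calls were lost without WT replicate 3 or Mutyh-/- replicate 1 (0.48 to 0.58) for Dnm1, without WT replicate 3 or Mutyh-/- replicate 1 (0.26 to 0.74) for Syt4 and without WT replicate 2 or Mutyh-/- replicate 1 or 2 (-0.44 to -0.55) for Rims2. Of the ion channels, Hcn2, a pacemaker channel, had 74.1 ± 12.7 in WT and 129 ± 25.02 in Mutyh-/- (log2 fold change 0.75 ± 0.26), and Kcnd3, a channel of A-type potassium current, 123 ± 16.1 and 74.97 ± 27.9 (log2 fold change -0.71 ± 0.28). The first was higher and the second lower, and the calls were lost without Mutyh-/- replicate 3 (0.61) and without WT replicate 2 or Mutyh-/- replicate 3 (-0.50 to -0.61). The beta 4 subunit of sodium channels, Scn4b (log2 fold change 1.53), and Kcnh5 were the other 2 channel genes called higher. Scaffold genes of the glutamate synapse split as well, with Dlgap1 at 1.57 and Dlg1 at -1.51 on the log2 scale, and the Dlg1 groups overlapped, with 44.6, 52.9 and 44.0 in WT and 0, 13.4 and 44.3 in Mutyh-/-. Neither edgeR nor DESeq2 called Dlg1, and its call was kept only without Mutyh-/- replicate 3 (-0.76 to -1.55 in the other 5 fits). That of Dlgap1 was lost without WT replicate 1 or Mutyh-/- replicate 1, 2 or 3 (0.70 to 1.69). Another promoter peak of each gene was not called, at 0.29 for Dlgap1 and -0.069 for Dlg1. Syn3 and Scn4b, like Slit3 below, were named after their values were seen.

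Of the axon guidance genes, the semaphorin Sema3a (-1.27), the adhesion molecule Nfasc (-1.13) and the guidance ligand Slit3 (-0.59) were lower and the semaphorin Sema5a (0.97) was higher. Calls were lost without WT replicate 1 or 2 or Mutyh-/- replicate 3 (-0.77 to -1.23) for Sema3a, without WT replicate 2 or Mutyh-/- replicate 2 (-0.79 to -0.86) for Nfasc and without WT replicate 2 or Mutyh-/- replicate 1 (0.66 to 0.71) for Sema5a. Of the activity-regulated genes, the AP-1 subunit Jund was lower (112, 128 and 132 in WT and 43.4, 117 and 57.3 in Mutyh-/-, log2 fold change -0.83 ± 0.28). Its partner Junb (0.52) and the neuronal transcription factor Mef2d (0.69) were higher. Jund lost its call without Mutyh-/- replicate 1 (-0.55), Junb without WT replicate 2 or Mutyh-/- replicate 1 or 3 (0.38 to 0.57) and Mef2d without WT replicate 2 or Mutyh-/- replicate 1 or 2 (0.26 to 0.68). Cdkn2a, an inhibitor of the cell cycle, was the called gene of the DNA damage response (63.2, 61.7 and 64.3 in WT and 106, 144 and 73.0 in Mutyh-/-, log2 fold change 0.66 ± 0.30), and its call was kept only without Mutyh-/- replicate 3 (0.44 to 0.68 in the other 5 fits). Of the respiratory chain, Cox7c (0.70) was higher and Atp5mpl (-0.64) lower, the calls being lost without WT replicate 3 or Mutyh-/- replicate 3 (0.33 to 0.64) and without WT replicate 3 or Mutyh-/- replicate 2 (-0.49 to -0.60). Of the zinc fingers, Zfp57, a keeper of imprints, was higher (1.06) and lost its call without WT replicate 2 (0.71). Among the 29 called list members named by rule, 3 kept the call whichever library was left out, namely Zfp712, Zfp958 and Kcnh5. With the authors' library factors 18 of the 29 were no longer called, whether or not the prior count was kept, and with DESeq2 10.

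Of 13 genes singled out by the study, 12 had a promoter peak, 15 peaks in all, of which 1 was called (6.67%, beside 3.72% of all promoter peaks). This was Glis1, a Krüppel-like zinc finger gene, with 55.8, 35.3 and 60.9 in WT and 91.6, 76.8 and 83.4 in Mutyh-/- libraries (chr4:107434605-107435005, log2 fold change 0.69 ± 0.28), and the call was lost without WT replicate 2 or Mutyh-/- replicate 1 (0.48 to 0.63). It lies within 10 Mb of Mutyh. Next were Grin1, the obligatory NMDA receptor subunit (log2 fold change -0.57 ± 0.28), and Camk2a, the kinase of synaptic plasticity (-0.73 ± 0.37). The metabotropic receptor gene Grm7 had 89.2, 83.7 and 88.0 in WT and 121, 130.2 and 122 in Mutyh-/- (0.48 ± 0.25). These groups did not overlap, as was so at 10.1% of all peaks. A pair of Bdnf promoters had log2 fold changes of 0.58 and -0.28. These genes were picked by the study on the same samples, so they are no independent evidence of a direction.

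Whether the same promoters differed where Mutyh was missing in mice that also lacked Ogg1 was read from DKO minus Ogg1-/-. Its fold changes use none of the libraries of the first comparison. Its SEs and p-values come from the same fit of 12 libraries, so calls in the 2 contrasts share their estimate of spread. At the 244 regions higher in Mutyh-/- the median log2 fold change was 0.027, and at the 233 lower regions -0.0028, against -0.023 over all peaks. It was above 0 in 131 (53.7%) and 116 (49.8%), against 47.6% of all peaks. Of the 244, 3 were called higher and 4 lower, and of the 233, 4 higher and 9 lower, while 5.23% of all peaks were called in this contrast, 2.26% higher and 2.97% lower. Without DKO replicate 1, the share called was 3.04%. The medians at the called regions were close to that of all peaks, and no difference between the contrasts passed correction (smallest adjusted p 0.933, 554 peaks, or 4.39%, at an unadjusted p under 0.05).

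Of the 12 leading higher promoters, 9 had a fold change above 0 in DKO minus Ogg1-/- and the median was 0.10, and of the 12 lower ones 6 were above 0, with a median of -0.029. Without DKO replicate 1, 5 of the higher ones were above 0, with a median of -0.01, and 6 of the lower ones, with a median of -0.0071. Ache was the one called in the same direction among the higher ones. It had 45.3, 53.0 and 79.1 RPM in Ogg1-/- and 94.1, 93.6 and 96.0 in DKO libraries (log2 fold change 0.65 ± 0.28, and 0.66, still called, without DKO replicate 1). Every DKO library was above every Ogg1-/- library. Myef2 was the one called among the lower ones, with 90.7, 106 and 70.1 in Ogg1-/- and 10.5, 67.8 and 65.5 in DKO (-1.07 ± 0.45), and without DKO replicate 1 it was -0.37 and no longer called. Of the other leading promoters, those furthest from 0 in either direction were not called. Mapk3 (0.46), Plin1 (0.45), Ccdc158 (-0.65) and Srek1 (-0.61) had the same sign in both contrasts. Marchf4 (0.44), Styx (0.56) and Tmem179b (0.47) had opposite signs. Ahcy was level across the other genotypes, at 73.8 ± 17.01 in Ogg1-/- and 76.2 ± 13.4 in DKO against 77.5 ± 27.1 in WT and 24.4 ± 8.22 in Mutyh-/-. Some other leading promoters differed from WT in Ogg1-/- libraries too. For Nsun3, Zfp712, Kcnh5, Gcc1 and Ache, log2 fold changes of Ogg1-/- minus WT were 1.13, 0.83, 1.05, 0.47 and 0.07. For Marchf4, Ahcy, Fyn, Styx and 2510009E07Rik they were -0.91, -0.04, -0.24, -0.93 and -0.46. These values share the WT libraries with Mutyh-/- minus WT.

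**Figure D4:**
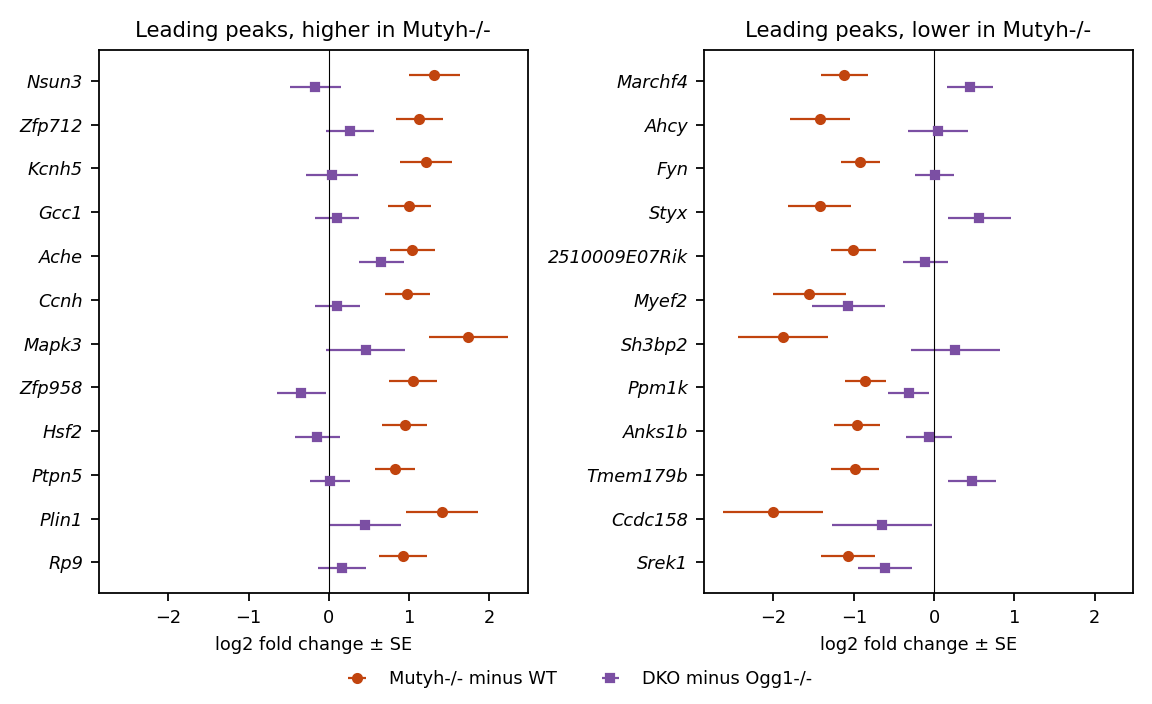
Log2 fold change with its SE (x axis) at the 12 leading promoter peaks of each direction (y axis) for Mutyh-/- minus WT (red circles) and DKO minus Ogg1-/- (purple squares). Squares lie on both sides of 0, between -1.07 at Myef2 and 0.65 at Ache, the 2 peaks that were called in both contrasts with the same sign.

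In NeuN- nuclei, sorted from the same pools and tested in a table of their own, 3000 peaks overlapped a NeuN+ peak one to one (by at least 1 bp), and 4.57% of these were called between Mutyh-/- and WT, as were 4.83% of all NeuN- peaks. None of the 28 markers of any cell type had a promoter peak in that table, whose libraries held 39320 to 103840 reads in the WT and Mutyh-/- groups. Of the called NeuN+ regions, 128 had such a partner. Among the 67 higher ones 6 were called higher and 1 lower in NeuN- nuclei, with a median log2 fold change of -0.16, and among the 61 lower ones 1 was called lower and 4 higher, with a median of 0.0068, against 0.0052 over all partners. Of the leading promoters, 6 had a partner, and that of Ptpn5 was called, with 15.1, 10.6 and 41.2 RPM in WT and 177, 156 and 95.1 in Mutyh-/- NeuN- libraries (log2 fold change 1.86 ± 0.75, limma adjusted p = 0.925). All 3 knockout libraries were above the WT libraries there. Jund went the other way than in neurons, from 30.2, 137 and 41.2 to 244, 146 and 357 (log2 fold change 1.64 ± 0.48, limma adjusted p = 0.586). The intergenic Axin2 peak was at 477 ± 126 in WT and 1219 ± 93.4 in Mutyh-/- NeuN- libraries (n = 3 each, log2 fold change 1.34 ± 0.28, limma adjusted p = 0.0941), and that of Filip1l at 403 ± 97.3 and 748 ± 121 (limma adjusted p = 0.866). Both peaks were thus on the same side in both fractions.

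Some H3K4me3 peaks lay under the repressive mark H3K27me3 or the Polycomb subunit Suz12 in NeuN+ nuclei (overlap of at least 1 bp). Of 200 peaks that overlapped H3K27me3, 7 were called higher and 1 lower (4.00%, near the 3.78% of all peaks), their median log2 fold change was 0.20 against 0.002 for all peaks, and 63.5% were above 0 against 50.2%. Of 235 peaks that overlapped Suz12, 9 were called higher and 1 lower (4.26%), while 1.93% of all peaks were higher and 1.85% lower. The median of the Suz12 group was 0.069. It was 0.0071 without WT replicate 3, 0.20 without Mutyh-/- replicate 3 and 0.013 on log2(value + 1) of the deposited values. The peaks of Axin2, Filip1l, Gm7102, Prdm13, Cdk8 and 2810429I04Rik were called higher in both sets, so the 2 counts are largely of the same peaks. Their WT level was low, with a median of 40.7 RPM under H3K27me3 against 79.1 for all peaks. The median of the H3K27me3 group lay between 0.096 (without WT replicate 3) and 0.26 (without Mutyh-/- replicate 3) when single libraries were left out, and in DKO minus Ogg1-/- it was 0.0037. The called members below were named after their values were seen. Under Suz12 but not H3K27me3 lay the promoters of Plcb4, a phospholipase, and Sphk1, a sphingosine kinase. Plcb4 had 37.2, 30.9 and 27.1 RPM in WT and 115.7, 76.8 and 49.5 in Mutyh-/- (log2 fold change 1.13 ± 0.44). Sphk1 had 11.2, 0 and 23.7 in WT and 28.9, 63.4 and 46.9 in Mutyh-/- (1.75 ± 0.64). The exonic peak of the transcription factor gene Prdm13 had 22.3, 13.2 and 0 in WT and 43.4, 43.4 and 41.7 in Mutyh-/- (1.67 ± 0.74). The groups did not overlap at these 3, and adjusted p was 0.999. They did overlap at Gm7102, Cdk8, 2810429I04Rik, 1700039E22Rik and Hmga2, which were also called higher. The peak called lower under H3K27me3 was that of 1700026F02Rik (-1.89 ± 0.91), where the groups did not overlap. Under Suz12 it was the promoter of Plekhg3 (-1.22 ± 0.46), where they did.

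A few windows held very many reads in single libraries. At 8 peaks a WT or Mutyh-/- library exceeded 1000 RPM. WT replicate 2 and Mutyh-/- replicate 1 exceeded this at 6 and 7 of them, and the 8 peaks took 5.19% and 5.07% of the peak reads of these libraries, against at most 0.28% in the other 4. The highest, a window of 97.01% repeat sequence annotated to Lrrc4c (chr2:98666960-98667360), had 41821 and 38545 RPM in these 2 libraries and 0 in the other 4. None of the 8 was called, and the part these libraries play in other results is given by the fits that left each of them out.

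Sequence motifs were counted in the windows of the called regions and of all peaks. The SP/KLF box GGGCGG, read on both strands, was in 70.5% of the higher, 69.5% of the lower and 68.1% of all windows. The ETS motif CCGGAAG was in 10.2%, 12.0% and 12.0%, and the E-box CACGTG in 6.56%, 6.87% and 7.78%. The YY1 motif AAGATGGC was in 3 of 244 higher (1.23%), 13 of 233 lower (5.58%) and 3.44% of all windows, so that it was more frequent in the lower than in the higher group. The NRF1 motif was in 0.41%, 0.858% and 0.641%, and the CRE motif TGACGTCA in 0.82%, 1.72% and 1.27%. The CCAAT box (CCAAT) was in 23.4%, 27.04% and 23.7% of windows. These shares are descriptions of windows of equal length and were not tested.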

How the data were processed

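Chromatin of NeuN+ and NeuN- nuclei from pooled hippocampi was precipitated with an anti-H3K4me3 antibody and sequenced. Per the labels and the study's methods, the authors checked reads with FastQC 0.11.9, aligned them to GRCm38 with Bowtie2 2.3.5.1, called broad peaks per library at a false discovery rate of 0.05, kept regions found in at least 2 of 3 replicates of a genotype, and counted reads in them with DiffBind 3.10.1. Peaks were annotated with ChIPseeker 1.36. The removal of duplicates, the use of blacklisted regions and the treatment of input libraries are not given in the sources used here. The deposited values are signal, namely reads per peak divided by a library factor of the authors. Dividing by the step between low values gave whole reads (within 0.01) for 100% of values.

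From these reads, TMM factors (0.953 to 1.016 across the libraries) and log2 RPM with a prior count of 2 were computed. All 12 libraries of the NeuN+ table entered a limma 3.58.1 fit with an intensity trend and genotype as the only term, in R 4.3.3, and the contrast was Mutyh-/- minus WT. All p-values of single peaks are two-sided and come from this fit, and adjusted p-values are Benjamini-Hochberg over 12628 peaks. The design named this limma fit as the main test, to be replaced by a count test if the values were raw counts. Since the values are scaled signal, limma was kept. The count tools edgeR 4.0.16 and DESeq2 1.42.0 were run on the recovered reads as alternatives. The thresholds for a called region are those of the study. Other alternatives changed the scaling, prior count, filter, GC correction, robust variance, replicate block and libraries. The fits without DKO replicate 1, with the block and GC correction together, and with the authors' factors as library sizes were added after the data were seen. The fitting script was tested on simulated data. Genes were named by rule: the 12 promoter peaks and 3 other peaks of smallest p in each direction that were called, had groups without overlap and a mean of 10 reads or more in the higher group, up to 3 called members of each gene list, and the genes of the study. The members and lists were chosen with earlier results of these data known. Sequences and gene starts are from the GRCm38 assembly of RefSeq. The values of some listed genes are not reported here.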

Additional observations from a re-analysis of the deposited data

How the results depend on the processing

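On log2(value + 1) of the deposited values, with the authors' own library factors, 115 regions were called, 43 higher and 72 lower, and 113 of them were among the 477. With those factors and the prior count kept, 121 were called, 45 higher and 76 lower, and 118 of them were among the 477. The other changes of scaling, prior count, filter or tool gave 378 to 506 calls, the fit of WT and Mutyh-/- libraries alone 540, and no alternative gave an adjusted p under 0.05. Leaving out single WT or Mutyh-/- libraries gave 381 to 562 calls, 162 to 334 of them higher and 188 to 337 lower, and 209 to 308 of the 477 remained. The fewest higher calls, 162, came without Mutyh-/- replicate 1, and the cause was not tested. The log2 difference in reads in peaks ranged from -0.059 to 0.34 in these settings. Replicate numbers did not pair the libraries (correlations of same-numbered deviations -0.011, -0.063 and 0.058), and a fit with the replicate number as a block called 477 regions, 241 higher and 236 lower, or 486 with GC correction. In the block fit, Cck (-0.62) was no longer called. Without DKO replicate 1, the medians of DKO minus Ogg1-/- were 0.002 at the higher and 0.0065 at the lower regions, and on log2(value + 1) of the deposited values 0.011 and 0.022. The direction of every called peak named by rule was the same in the alternatives run for it. At 16 to 30 reads in the median peak, a log2 difference under 0.69 was mostly not detectable at a single peak, and counting error alone is part of the spread of all low peaks.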
